A study of Mus musculus with 10 samples.

Results

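The matrix metalloproteinases and their tissue inhibitors were followed in RNA-seq data of intestinal organoids. The set holds 10 genes of the 47069 in the table, found by symbol: the 7 metalloproteinases *Mmp2*, *Mmp3*, *Mmp9*, *Mmp10*, *Mmp12*, *Mmp13* and *Mmp14*, and the 3 inhibitors *Timp1*, *Timp2* and *Timp3*. Organoids are crypts grown as small epithelial structures in Matrigel, here in medium with Noggin, EGF and R-spondin 1. The mice were C57BL/6 and, by the study's methods, *Lgr5-EGFP-CreERT2; Ppp2r1a*flox/flox, so that tamoxifen (TAM) switches on Cre in Lgr5+ stem cells and deletes the scaffold subunit of protein phosphatase 2A (PP2A) there and in their progeny. Every culture was labelled as 50 days long, and there were 2 libraries in each of 5 groups. The control group received saline, a further group the carcinogen DMBA (labelled long), 2 groups received tamoxifen in schedules labelled dosage-sensitive short (TAM short) and dosage-sensitive long (TAM long), and the last group received both (DMBA+TAM). The library titles do not match these treatment labels in full: control libraries are titled NS, DMBA libraries NL, TAM short and TAM long libraries DSS_S and DSS_L, and DMBA+TAM libraries Lgr5. In the study's text DSS abbreviates dextran sulfate sodium, a chemical that causes colitis, which no label gives as a treatment, and only DMBA+TAM carries Lgr5 in its title. Groups are named here by their treatment labels, and whether the titles or the labels describe the TAM libraries was not settled. What short and long stand for, the doses, and whether the 2 libraries of a group came from separate animals are not given in the sources used here, so p-values measure the spread between libraries only. The comparisons ask how the genes that cut and protect the matrix differ between organoids given both treatments and those given a single treatment or saline.

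Matrix metalloproteinases are zinc-dependent enzymes that are made as inactive precursors, opened by other proteases, and then cut collagens, gelatins, elastin, proteoglycans and cell surface proteins. Tissue inhibitors of metalloproteinases (TIMPs) block their active site. At the cell surface, the membrane-bound enzyme Mmp14 together with Timp2 opens the precursor of Mmp2. In the gut, most of these genes are known from fibroblasts, macrophages and neutrophils of the lamina propria and are raised in inflamed or wounded mucosa and around tumors.

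The libraries held 8828247 to 10923673 reads counted on genes in the control, DMBA, TAM short and TAM long groups and 1592366 and 1915270 in DMBA+TAM. Values below are counts per 1000000 reads of a scaled library total (normalized CPM), in which 3 counts stand for 1.58 and 1.32 in the DMBA+TAM libraries and for 0.259 to 0.379 elsewhere. *Ppp2r1a*, the gene that Cre cuts, had 123 to 133 normalized CPM in the control and DMBA+TAM libraries, 153 to 169 in DMBA and TAM long, and 131 and 147 in TAM short. Its counts sum over all exons, so they do not check the deletion. All 10 libraries held counts of markers from outside the epithelium, with smooth muscle sums of 1209 to 12836 in control, DMBA, TAM short and TAM long. The DMBA+TAM libraries departed furthest from the labelled tissue by their epithelial markers. Of 10 epithelial markers, 10 were lower in them than in control, with a summed level of 22.5 to 33.8 against 19026 to 19927. Fibroblast markers were higher (10 of 10, with sums of 33171 to 33892 against 1195 to 1393), as were macrophage markers (9 of 9, with sums of 6171 to 6541 against 172 to 221), endothelial markers (6 of 7, with sums of 606 to 612 against 80.6 to 86.7) and neutrophil markers (4 of 5 tested, with sums of 89.4 to 111 against 1.20 to 1.92, and the defining *Ly6g*, *Mpo* and *Elane* at 0 counts in DMBA+TAM). In the other 3 groups, epithelial sums were 13342 to 22863, fibroblast sums 702 to 2474 and macrophage sums 279 to 374. Their part in the differences below was not tested, and in bulk RNA fewer cells of a type and less RNA per cell cannot be told apart. Markers of the gut segment split the other groups. Small intestine markers summed to 18215 to 25149 in control and TAM short, whose library names hold an S, and to 15.5 to 98.8 in DMBA and TAM long, whose names hold an L. Colon markers summed to 3284 to 12003 in DMBA and TAM long and to 40.1 to 55.7 in control and TAM short. Within the small intestine list, control and TAM short also differed. The ileal markers *Fabp6* and *Slc10a2* averaged 1.53 and 4.63 normalized CPM in control against 8406 and 283 in TAM short, and the proximal marker *Lct* averaged 1417 against 1.97. Differences of DMBA, TAM long or TAM short from control therefore cannot be told apart from these differences in segment markers.

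**Figure D1:**
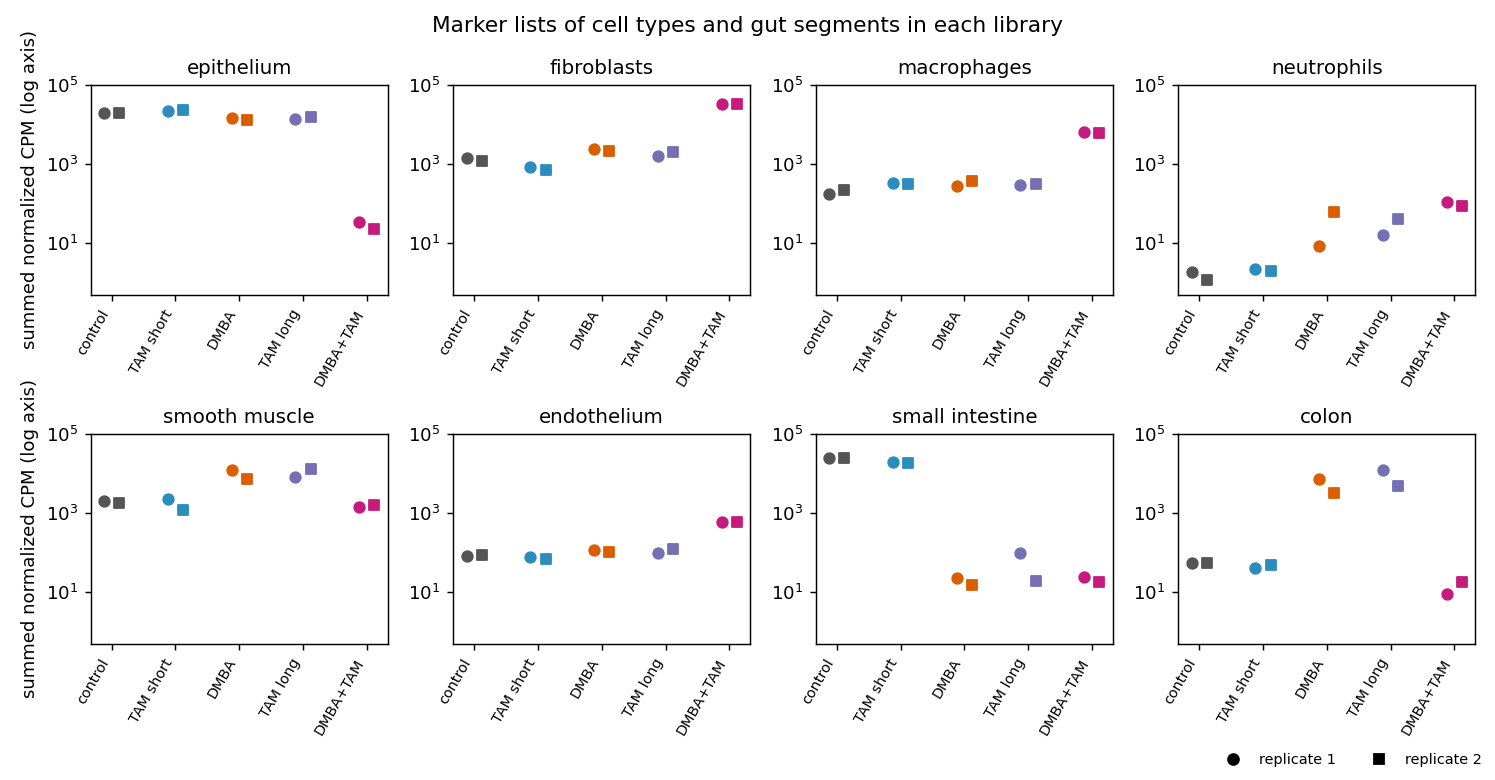
Summed normalized CPM of 8 marker lists in each library on a log axis, with a point for each of the 10 libraries and the shape marking the replicate. The DMBA+TAM libraries have the lowest epithelial sums (22.5 and 33.8) and the highest fibroblast, macrophage, endothelial and neutrophil sums, while small intestine and colon markers separate control and TAM short from DMBA and TAM long.

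In DMBA+TAM, the whole set moved upward except *Mmp10*. Against control, 9 of the 10 genes were higher and 1, *Mmp10*, was lower, where 29.0% of the 16179 genes tested were higher and 35.3% lower. Against DMBA, 9 were higher and 0 lower (25.2% and 29.9% of all genes). Against TAM long, 9 were higher and 0 lower (25.3% and 29.9%), and against TAM short, 9 were higher and 0 lower (29.3% and 33.8%). *Mmp10* was the exception each time. At an unadjusted p under 0.05, edgeR gave 0 lower members against DMBA, 0 against TAM long and 1, *Mmp10*, against TAM short, and DESeq2 called the same numbers. The median log2 fold change of the set was 4.66 with control as the reference, 3.83 with DMBA, 3.86 with TAM long and 5.25 with TAM short, beside medians of -0.17, -0.14, -0.14 and -0.14 over all genes. For 9 of the 10 genes both DMBA+TAM libraries lay above all 8 others, as they did for 24.7% of all genes tested. The 4 comparisons share the DMBA+TAM libraries and are not independent of each other. Genes were called at an adjusted p under 0.05 (edgeR quasi-likelihood, Benjamini-Hochberg over all genes). *Mmp2*, *Mmp3*, *Mmp9* and *Timp1* were also shown in the study as a heat map of these libraries, so their rise is not independent evidence of the direction. All 10 members were chosen with earlier results of these data known, so their counts beside the shares of all genes do not test the set. When libraries were scaled by total count only, the median over all genes against control moved from -0.17 to 0.31, and the calls changed from 4687 higher and 5709 lower to 6254 higher and 3755 lower. The 9 genes stayed higher and *Mmp10* lower under this scaling.

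**Figure D2:**
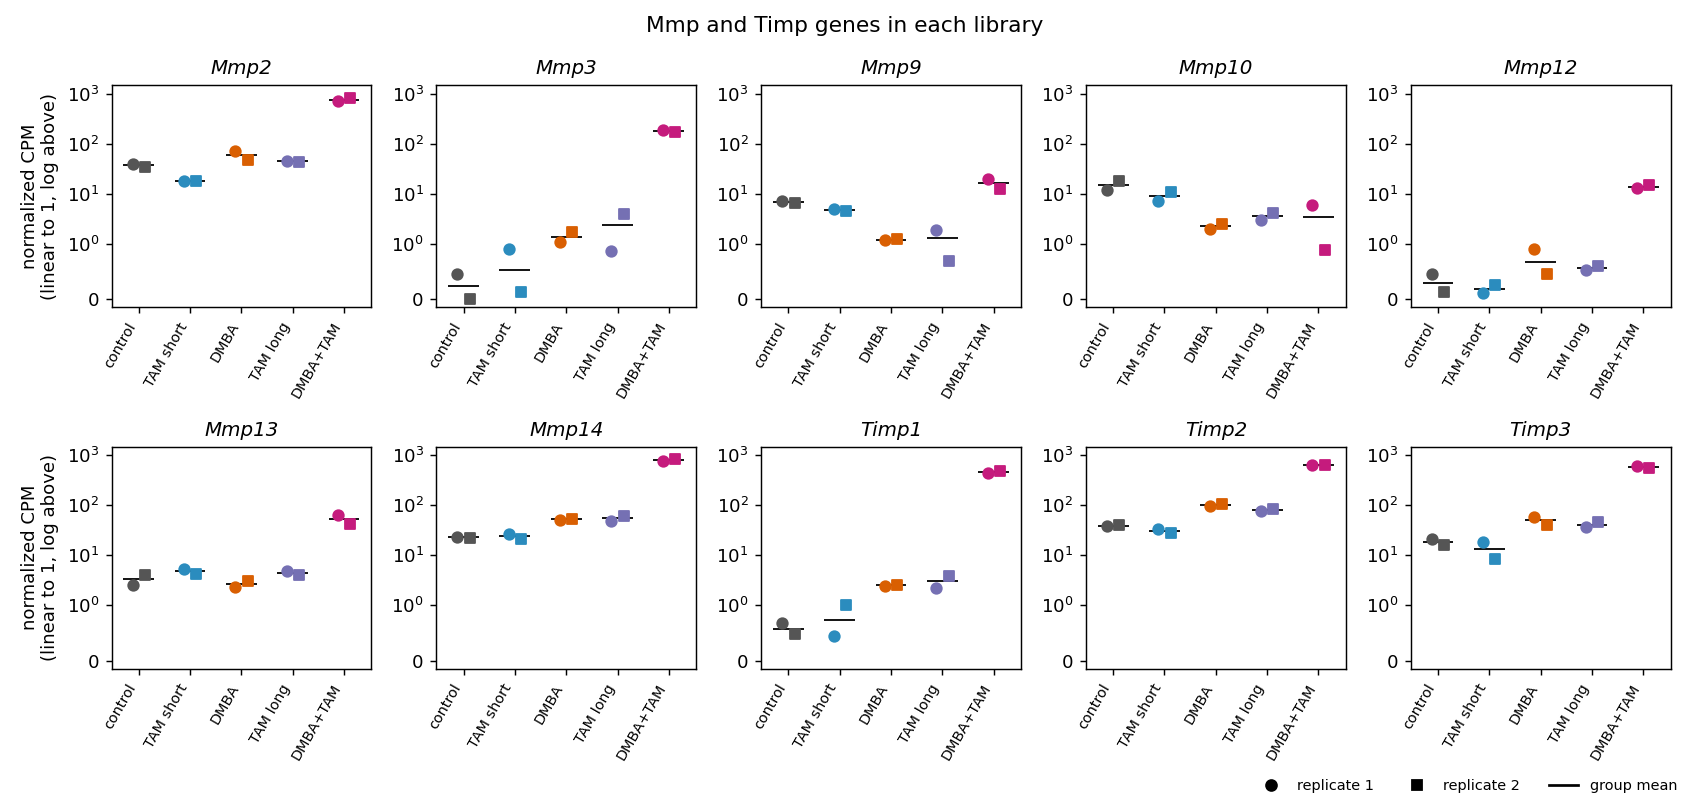
Normalized CPM of the 10 genes in each of the 10 libraries, on an axis that is linear up to 1 and logarithmic above, with the shape marking the replicate and a line at the mean of each group. All genes but *Mmp10* are highest in both DMBA+TAM libraries, from 12.3 for *Mmp9* to 838 for *Mmp14*.

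Among the metalloproteinases, the genes of the cell surface pathway, *Mmp14* and *Mmp2*, reached the highest levels per gene length in DMBA+TAM. *Mmp14* (ENSMUSG00000000957, chr14:54431612-54441265, plus strand of GRCm38) encodes membrane type 1 metalloproteinase, which cuts fibrillar collagen at the cell surface and opens the Mmp2 precursor. It had 782 and 838 normalized CPM in DMBA+TAM, compared with 23.5 and 22.4 in control, 26.2 and 21.5 in TAM short, 51.9 and 54.0 under DMBA alone, and 48.2 and 61.1 under TAM long. The DMBA+TAM libraries stood far above the rest, and DMBA and TAM long lay above control and TAM short without overlap. Its log2 fold change in DMBA+TAM was 5.14 against control (standard error 0.17, adjusted p = 1.53e-08), 3.94 against DMBA (adjusted p = 5.83e-08), 3.89 against TAM long (adjusted p = 5.47e-08) and 5.09 against TAM short (adjusted p = 1.47e-08). *Mmp2* (ENSMUSG00000031740, chr8:92827328-92853417, plus strand) encodes gelatinase A, which degrades denatured collagen and basement membrane collagen. It had 709 and 803 normalized CPM in DMBA+TAM, compared with 39.6 and 34.2 in control, 17.9 and 17.7 in TAM short, 70.6 and 47.7 under DMBA alone, and 45.7 and 43.7 under TAM long. TAM short was the lowest group and its libraries did not overlap any other group. The log2 fold change was 4.36 against control (standard error 0.20, adjusted p = 6.44e-08), 3.67 against DMBA (adjusted p = 2.33e-07), 4.08 against TAM long (adjusted p = 1.26e-07) and 5.41 against TAM short (adjusted p = 2.71e-08).

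*Mmp9* (ENSMUSG00000017737, chr2:164940780-164955850, plus strand) encodes gelatinase B, an enzyme stored by neutrophils and made by macrophages. It had 20.1 and 12.3 normalized CPM in DMBA+TAM, compared with 7.12 and 6.38 in control, 4.97 and 4.54 in TAM short, 1.16 and 1.24 under DMBA alone, and 1.90 and 0.688 under TAM long. Its levels were thus highest in DMBA+TAM, lower in control and TAM short, and lowest in DMBA and TAM long. Of the 9 genes that rose in DMBA+TAM it rose least against control, by 1.25 on the log2 scale (standard error 0.39, adjusted p = 0.0167), and more against DMBA at 3.73 (adjusted p = 6.96e-05) and TAM long at 3.60 (adjusted p = 7.47e-05). Against TAM short it was 1.75 (adjusted p = 0.00327). With 1 library left out, the value against TAM long ranged from 3.06 to 4.50. The call against control was lost without control replicate 1 (adjusted p = 0.0692), control replicate 2 (0.0978) or DMBA+TAM replicate 1 (log2 fold change 0.84, adjusted p = 0.162).

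The 4 remaining metalloproteinases, *Mmp13*, *Mmp12*, *Mmp3* and *Mmp10*, lie in the same gene cluster on the plus strand of chromosome 9, between 7272514 and 7510238 of GRCm38. Start regions from RefSeq (GRCm38.p6) were used for 8 of the 10 genes of the set, and those of *Mmp2* and *Mmp9* were not analysed here. The AP-1 motif TGANTCA, which Fos and Jun proteins bind, was searched on both strands of the 250 bases before each start. It was found for 4 of these 8 genes, all in this cluster. By starts, it was found before 4 of their 9, and in 6.75% of the 32851 start regions of the table. The TATA box TATAAA was found in 12.4% of all regions, and both motifs in 1.21%. *Mmp3*, *Mmp10* and *Mmp13* held both, and *Mmp12* held the AP-1 motif before the second of its 2 listed starts. The 2 motifs do not overlap each other. The 150 bases before each start are shown from 5′ to 3′ because they place the same motif beside genes whose counts went different ways, with both motifs in capitals.
Mmp3, chr9:7445672-7445821, plus strand: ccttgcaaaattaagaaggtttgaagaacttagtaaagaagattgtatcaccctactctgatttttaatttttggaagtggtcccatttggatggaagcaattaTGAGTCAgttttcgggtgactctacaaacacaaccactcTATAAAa
Mmp10, chr9:7502192-7502341, plus strand: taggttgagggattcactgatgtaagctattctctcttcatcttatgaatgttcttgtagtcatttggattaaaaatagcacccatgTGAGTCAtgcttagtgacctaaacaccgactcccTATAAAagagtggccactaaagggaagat
Mmp13, chr9:7272364-7272513, plus strand: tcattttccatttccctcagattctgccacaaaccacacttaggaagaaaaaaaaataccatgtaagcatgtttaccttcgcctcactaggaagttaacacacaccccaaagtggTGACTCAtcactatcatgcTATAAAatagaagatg
Mmp12 second start, chr9:7347224-7347373, plus strand: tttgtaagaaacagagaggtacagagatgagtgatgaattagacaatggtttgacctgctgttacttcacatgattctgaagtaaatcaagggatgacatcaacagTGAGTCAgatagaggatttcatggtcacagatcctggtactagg
The AP-1 match ends 40 bases before the start of *Mmp3*, 57 before *Mmp10*, 29 before *Mmp13* and 38 before the second start of *Mmp12*. Counted from the start, TATAAA spans -7 to -2 in *Mmp3*, -29 to -24 in *Mmp10* and -16 to -11 in *Mmp13*, so its distance differs between them. A match of letters does not show that a factor was bound or that TATAAA works as a TATA box there.

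*Mmp3* (ENSMUSG00000043613, chr9:7445822-7455972) encodes stromelysin-1, which cuts proteoglycans and fibronectin and opens other metalloproteinase precursors. It had 184 and 174 normalized CPM in DMBA+TAM, compared with 0.452 and 0 in control, 0.904 and 0.126 in TAM short, 1.07 and 1.68 under DMBA alone, and 0.863 and 3.83 under TAM long. The DMBA+TAM values rest on 349 and 395 counts, and the control values on 4 and 0 counts. The ratio of summed counts to control, scaled by library size, was 766, with a 95% counting interval (exact, covering counting error only) of 298 to 2818. The fitted log2 fold change was 9.49 against control (standard error 0.72, adjusted p = 1.84e-06), and 8.55 without control replicate 2 or 13.4 without control replicate 1, which leaves a control library at 0 counts. It was 7.03 against DMBA (adjusted p = 4.64e-06), 6.28 against TAM long (adjusted p = 5.8e-06) and 8.35 against TAM short (adjusted p = 2.43e-06). With TAM long replicate 1 or 2 left out the former was 5.52 or 7.66, and with TAM short replicate 1 or 2 left out the latter was 10.3 or 7.58.

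*Mmp10* (ENSMUSG00000047562, chr9:7502352-7510238) encodes stromelysin-2, a close relative of stromelysin-1 that epithelial cells make at wound edges. It went the other way, with 5.81 and 0.881 normalized CPM in DMBA+TAM against 11.6 and 18.2 in control. It had 7.0 and 11 in TAM short, 1.96 and 2.47 under DMBA alone, and 2.93 and 4.13 under TAM long. The 2 DMBA+TAM libraries, with 11 and 2 counts, lay on either side of the DMBA and TAM long libraries. Relative to control its log2 fold change was -2.23 (standard error 0.58, adjusted p = 0.00705), with -1.38 without DMBA+TAM replicate 2 (adjusted p = 0.0516) and -4.08 without DMBA+TAM replicate 1 (adjusted p = 0.0016). It was 0.52 against DMBA (adjusted p = 0.542), -0.15 against TAM long (adjusted p = 0.865) and -1.49 against TAM short (adjusted p = 0.0518, 0.0371 with DESeq2), where it was -3.35 without DMBA+TAM replicate 1 (adjusted p = 0.00622). Of the 50-base stretches of its exons, 8.37% also occur in *Mmp3*, and 8.39% of those of *Mmp3* occur in *Mmp10* or a predicted gene. How the authors' counting treated reads that map to both is not stated, so the few *Mmp10* counts of DMBA+TAM are uncertain.

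*Mmp13* (ENSMUSG00000050578, chr9:7272514-7283333) encodes collagenase 3, which cuts fibrillar collagen. It had 64.9 and 41.4 normalized CPM in DMBA+TAM, compared with 2.49 and 4.09 in control, 5.20 and 4.29 in TAM short, 2.32 and 3.03 under DMBA alone, and 4.83 and 4.03 under TAM long. The other 8 libraries lay between 2.32 and 5.20, and both DMBA+TAM libraries lay above them. Among those 8, TAM short lay above control and TAM long above DMBA without overlap, and neither difference was called. Its log2 fold change was 4.01 against control (standard error 0.32, adjusted p = 2.63e-06), 4.31 against DMBA (adjusted p = 2.66e-06), 3.57 against TAM long (adjusted p = 5.85e-06) and 3.47 against TAM short (adjusted p = 5.88e-06). *Mmp12* (ENSMUSG00000049723, chr9:7344381-7369499) encodes macrophage metalloelastase. It had 12.7 and 15.0 normalized CPM in DMBA+TAM, from 24 and 34 counts, and 0.113 to 0.893 in the other 8 libraries, from 1 to 10 counts each. The 8 low libraries could not be ordered at this depth. Its log2 fold change was 5.50 against control (standard error 0.59, adjusted p = 2.21e-05, and 6.64 or 4.86 without control replicate 1 or 2), 4.30 against DMBA (adjusted p = 7.34e-05), 4.61 against TAM long (adjusted p = 4.94e-05) and 6.15 against TAM short (adjusted p = 1.71e-05). Against TAM short, with 3 counts in all, the ratio of the summed counts was 77.9 with a 95% counting interval of 25.4 to 389.

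The inhibitors rose as well. *Timp1* and *Mmp3* had the highest fitted log2 fold changes of the set in each of the 4 comparisons, and against control their order rests on 10 and 4 control counts and turned over without control replicate 1 (9.83 and 13.4). *Timp1* (ENSMUSG00000001131, chrX:20870166-20874735, plus strand) encodes a soluble inhibitor whose transcription is switched on by growth factors and cytokines, and which is weak against Mmp14. It had 442 and 481 normalized CPM in DMBA+TAM, from 838 and 1092 counts, and 0.678 and 0.482 in control, from 6 and 4 counts. TAM short libraries had 0.452 and 1.01, DMBA libraries 2.41 and 2.58, and TAM long libraries 2.24 and 3.83. The levels thus formed 3 steps that did not overlap, with control and TAM short at the bottom, DMBA and TAM long above them and DMBA+TAM at the top. The log2 fold change was 9.59 against control (standard error 0.30, adjusted p = 1.2e-08), 7.53 against DMBA (adjusted p = 2.54e-08), 7.26 against TAM long (adjusted p = 2.56e-08) and 9.30 against TAM short (adjusted p = 1.23e-08). With counts thinned to the smallest library, the value against control was 12.6. With 1 library left out, the value against TAM short ranged from 8.79 to 9.92. *Timp2* (ENSMUSG00000017466, chr11:118301069-118355740, minus strand) encodes the inhibitor that joins Mmp14 and the Mmp2 precursor. It had 651 and 633 normalized CPM in DMBA+TAM, compared with 37.8 and 39.9 in control, 33.3 and 28.3 in TAM short, 98.4 and 107 under DMBA alone, and 78.7 and 83.1 under TAM long. The 5 groups did not overlap. Its log2 fold change was 4.05 against control (standard error 0.13, adjusted p = 1.43e-08), 2.65 against DMBA (adjusted p = 1.16e-07), 2.99 against TAM long (adjusted p = 6.23e-08) and 4.38 against TAM short (adjusted p = 1.11e-08).

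*Timp3* (ENSMUSG00000020044, chr10:86300372-86349506, plus strand) encodes the inhibitor that stays bound to the matrix and also blocks the sheddase Adam17. It had 617 and 549 normalized CPM in DMBA+TAM, compared with 21.4 and 15.8 in control, 18.5 and 8.58 in TAM short, 59.7 and 40.5 under DMBA alone, and 36.5 and 45.7 under TAM long. Control and TAM short overlapped, as did DMBA and TAM long. The log2 fold change was 4.97 against control (standard error 0.35, adjusted p = 1.04e-06), 3.54 against DMBA (adjusted p = 9.87e-06), 3.83 against TAM long (adjusted p = 5.75e-06) and 5.42 against TAM short (adjusted p = 7.45e-07). With 1 library left out, the value against TAM short ranged from 4.94 to 6.05. The exons of *Timp3* overlap those of *Syn3* on the other strand over 1733 bp, and the library kit does not mark strand, so reads there cannot be assigned to either gene. *Mmp12* overlaps *Mmp1b* in the same way over 157 bp, and *Mmp1b* itself had at most 1 count in any library.

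**Figure D3:**
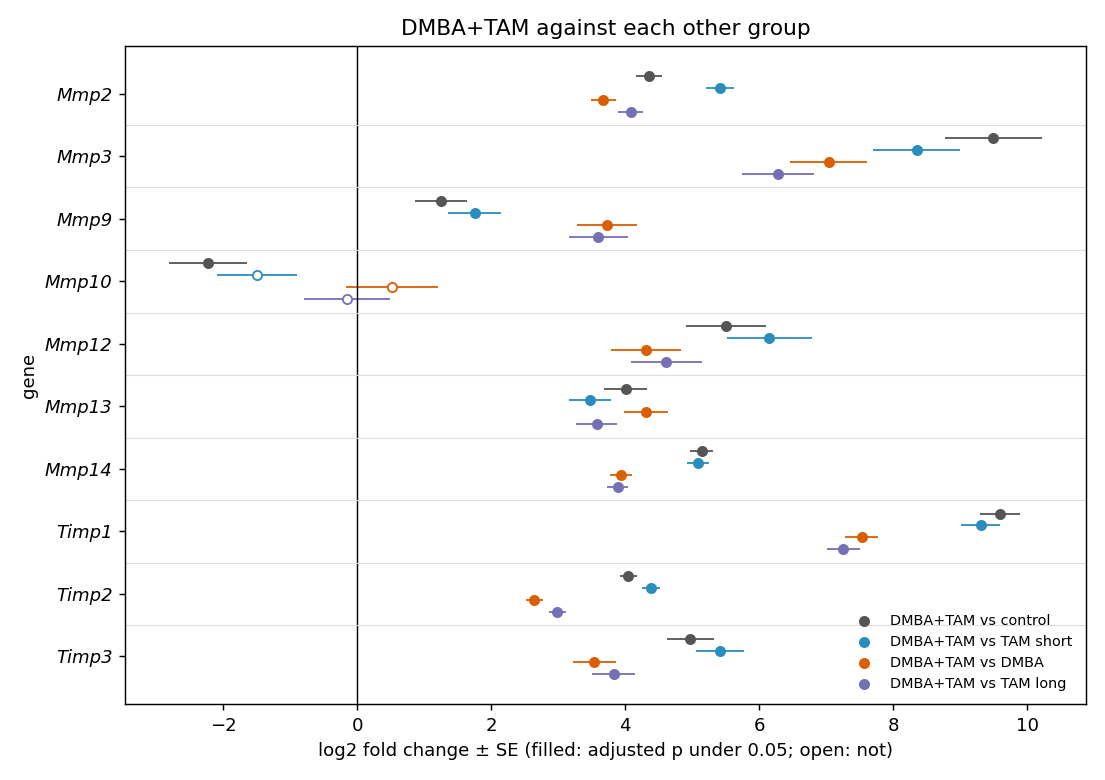
Log2 fold change of DMBA+TAM against control, TAM short, DMBA and TAM long for each of the 10 genes, with bars for the standard error and filled points for adjusted p under 0.05. *Mmp3* and *Timp1* have the largest changes against control (9.49 and 9.59), and *Mmp10* is the only gene below 0 in any of the 4 comparisons.

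The rises were set beside that of the fibroblast markers, since these moved with the same groups. The summed fibroblast markers were 25.9 times higher in DMBA+TAM than in control by the means, and single markers ranged in log2 fold change from 2.18 (*Pdgfra*) to 6.61 (*Thy1*) with a median of 3.95. By the same ratio of means, *Timp2* was 16.5 times, *Mmp13* 16.2 times, *Mmp2* 20.5 times, *Timp3* 31.4 times, *Mmp14* 35.3 times and *Mmp12* 48.3 times higher. The first 5 of these lie within the range of the single fibroblast markers. *Mmp12* could not be placed, since its log2 fold change of 5.50 rests on 5 control counts and was 6.64 without control replicate 1 and 7.57 with thinned counts. *Mmp3* at 792 times and *Timp1* at 796 times lie above it, while *Mmp9* at 2.40 times and *Mmp10* at 0.224 times lie below it. *Mmp9* lay inside the range of the single markers at 13.5 times against DMBA, where the fibroblast sum was 14.4 times higher, and at 12.5 times against TAM long, where the sum was 18.4 times higher. Against TAM short it lay below the range, at 3.40 times beside 43.1 times for the sum. Per 1000 normalized CPM of fibroblast markers, *Mmp2* had 28.5 ± 0.153 in control and 22.5 ± 1.62 in DMBA+TAM (SD, n = 2), and *Timp1* had 0.445 ± 0.0593 and 13.8 ± 0.608. Macrophage, endothelial and neutrophil markers moved with the same libraries. Against control, the tested macrophage markers had a median log2 fold change of 5.23, from 3.68 (*Cd14*) to 6.37 (*Cd163*). The part of any cell type in these rises was not tested.

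Levels were compared between genes per length, on the authors' FPKM scale (reads per kilobase of gene and 1000000 reads). In DMBA+TAM, *Mmp14* had 812 ± 37.3 FPKM and *Timp1* 639 ± 36.2 (SD, n = 2). *Timp2* followed with 344 ± 7.84, then *Timp3* with 304 ± 25.7 and *Mmp2* with 295 ± 25.0, which overlapped. *Mmp3* had 118 ± 5.09, *Mmp13* 23.6 ± 7.44 and *Mmp9* 14.9 ± 5.05, the latter 2 overlapping, and *Mmp12* 8.48 ± 0.979 and *Mmp10* 2.31 ± 2.41 were last. In control the order differed, with *Mmp14* at 16.4 ± 0.956, *Timp2* at 14.8 ± 0.212, *Mmp2* at 10.3 ± 1.30 and *Mmp10* at 7.30 ± 2.10 FPKM in the first places. *Timp3* (6.90 ± 1.63) overlapped *Mmp10* there, and *Timp1* (0.573 ± 0.151) stood near the end, ahead of *Mmp12* (0.126 ± 0.105) and *Mmp3* (0.108 ± 0.153). *Mmp10* was thus the fourth highest member in control and the lowest in DMBA+TAM, whereas *Timp1* moved from near the bottom to the second place. The gene length behind the FPKM of *Mmp9*, *Mmp12*, *Mmp14*, *Timp1*, *Timp2* and *Timp3* is shorter than the length listed beside them, and the listed lengths give other orders. With them, DMBA+TAM was led by *Timp1* (621 ± 35.2), *Mmp14* (371 ± 17.0), *Mmp2* (295 ± 25.0), *Timp2* (205 ± 4.68) and *Timp3* (147 ± 12.4), and control by *Mmp2* (10.3 ± 1.30), *Timp2* (8.84 ± 0.126) and *Mmp14* (7.48 ± 0.436), the last overlapping *Mmp10*.

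The makeup of the inhibitors changed with their amount. The summed FPKM of *Timp1*, *Timp2* and *Timp3* was 22.3 ± 1.57 in control, 18.6 ± 3.84 for TAM short, 74.5 ± 10.6 for DMBA alone, 61.2 ± 5.20 for TAM long and 1287 ± 2.60 in DMBA+TAM (SD, n = 2). *Timp1* made up 2.90% and 2.20% of this sum in control, 2.22% and 6.64% for TAM short, 3.83% and 4.37% for DMBA alone, 4.82% and 7.20% for TAM long, and 47.7% and 51.6% in DMBA+TAM. *Timp2* was the main inhibitor in the other 4 groups, at 63.1% to 67.8% by group means, and made up 26.7% ± 0.663 in DMBA+TAM. With the listed gene lengths the *Timp1* share in DMBA+TAM was 63.8% ± 2.43. The ratio of *Mmp14* to *Timp2* FPKM was 1.11 ± 0.0804 in control, 0.967 ± 0.0269 for DMBA alone, 1.26 ± 0.163 for TAM long, 1.44 ± 0.0364 for TAM short and 2.36 ± 0.162 in DMBA+TAM. With the listed gene lengths it was 0.846 ± 0.0614, 0.739 ± 0.0206, 0.963 ± 0.124, 1.10 ± 0.0278 and 1.80 ± 0.124 in the same order. Whether its mean lies above 1 in control and TAM long thus depends on the length used. Groups of 2 libraries cannot give an exact permutation p below 0.333, so shares and ratios are descriptions.

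**Figure D4:**
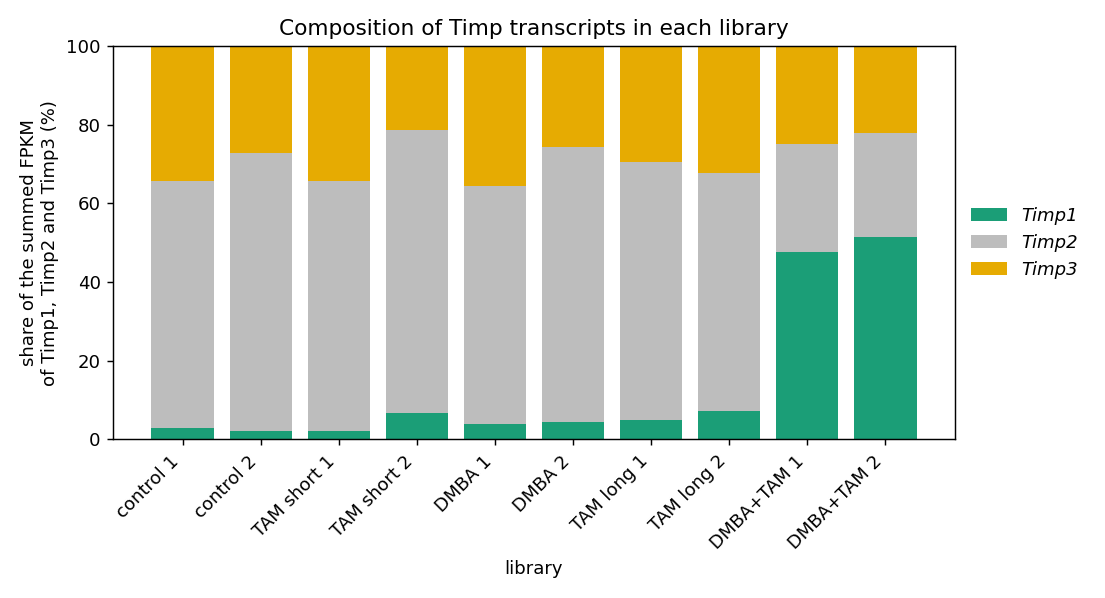
Share of *Timp1*, *Timp2* and *Timp3* in the summed FPKM of the 3 inhibitors, as stacked bars for each of the 10 libraries. *Timp1* takes 47.7% and 51.6% in the DMBA+TAM libraries and at most 7.20% in any other library.

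Single treatments were compared with control, and here the set split. In DMBA, 5 genes were higher (*Mmp2*, *Mmp14*, *Timp1*, *Timp2* and *Timp3*) and 2 lower (*Mmp9* and *Mmp10*), where 24.5% of all genes were higher and 23.3% lower. In TAM long, 5 were higher (*Mmp3*, *Mmp14*, *Timp1*, *Timp2* and *Timp3*) and 2 lower (*Mmp9* and *Mmp10*), where 23.2% of all genes were higher and 22.8% lower. Both comparisons use the same control libraries. Scaling by total count only moved the median over all genes from 0.07 to 0.38 in DMBA and from 0.05 to 0.37 in TAM long, and the calls over all genes from 3961 higher and 3774 lower to 5587 and 2257 in DMBA and from 3760 and 3684 to 5538 and 2148 in TAM long. The directions of the called members did not change with it. In DMBA the log2 fold change was 2.07 for *Timp1* (standard error 0.40, adjusted p = 0.00228), 1.43 for *Timp3* (adjusted p = 0.0044), 1.40 for *Timp2* (adjusted p = 1.62e-05), 1.20 for *Mmp14* (adjusted p = 0.000161) and 0.68 for *Mmp2* (adjusted p = 0.0104). All 3 inhibitors and the membrane-bound enzyme that works with *Timp2* were thus among the genes that rose. Fibroblast markers moved with them, with 9 of 10 called higher in DMBA and a sum 1.80 times that of control, and 6 higher and 1 lower in TAM long with a sum 1.41 times that of control. Of 9 macrophage markers, 4 were called higher and 0 lower in each, with sums of 279 to 374 in DMBA and 296 to 312 in TAM long against 172 to 221 in control. Of 10 epithelial markers, 5 were called lower in each and 3 higher in DMBA and 2 in TAM long, with sums of 13342 to 14244 and 13626 to 15222 against 19026 to 19927 in control. Their part in these differences was not tested. *Mmp9* fell by 2.48 (standard error 0.43, adjusted p = 0.00116) and *Mmp10* fell by 2.75 (standard error 0.47, adjusted p = 0.0011). In TAM long, *Timp1* had 2.34 (adjusted p = 0.000936), *Mmp14* 1.25 (adjusted p = 0.000135), *Timp3* 1.14 (adjusted p = 0.0141) and *Timp2* 1.06 (adjusted p = 9.12e-05), while *Mmp9* fell by 2.35 (adjusted p = 0.00145) and *Mmp10* fell by 2.08 (adjusted p = 0.00397). *Mmp3* had 3.21 in TAM long (adjusted p = 0.0271) and 2.46 in DMBA (adjusted p = 0.1), and *Mmp2* had 0.28 in TAM long (adjusted p = 0.228).

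These calls rest in part on depth and on single libraries. With counts thinned to the smallest library, 6 genes were called in TAM long, and *Mmp3* (4.59, adjusted p = 0.12) and *Mmp10* (-1.17, adjusted p = 0.172) were not, while *Mmp2* was. *Timp1*, with 6 and 4 control counts, kept its call but moved to 4.35 in DMBA (adjusted p = 0.0376) and 5.15 in TAM long (adjusted p = 0.00485). With 1 library left out, *Mmp9* in TAM long ranged from -3.27 to -1.83. Without control replicate 1, *Mmp3* was at 7.19 in TAM long (adjusted p = 0.044) and 6.43 in DMBA (adjusted p = 0.0877), and without control replicate 2 at 1.54 in DMBA (adjusted p = 0.361). In TAM long, 4 genes were called in place of 7 without control replicate 2, with *Mmp3* at 2.29, *Mmp10* at -1.73 and *Timp3* at 0.93 no longer called. Without TAM long replicate 2, which held 39 *Mmp3* counts against 10 in replicate 1, *Mmp3* was at 1.81 (adjusted p = 0.218) and *Timp3* at 0.96 (adjusted p = 0.0919), and neither was called. In DMBA, the call of *Mmp2* was lost without DMBA replicate 1 (0.35, adjusted p = 0.0851) or control replicate 2 (0.57, adjusted p = 0.0947), and that of *Timp3* without control replicate 2 (1.22, adjusted p = 0.0575).

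**Figure D5:**
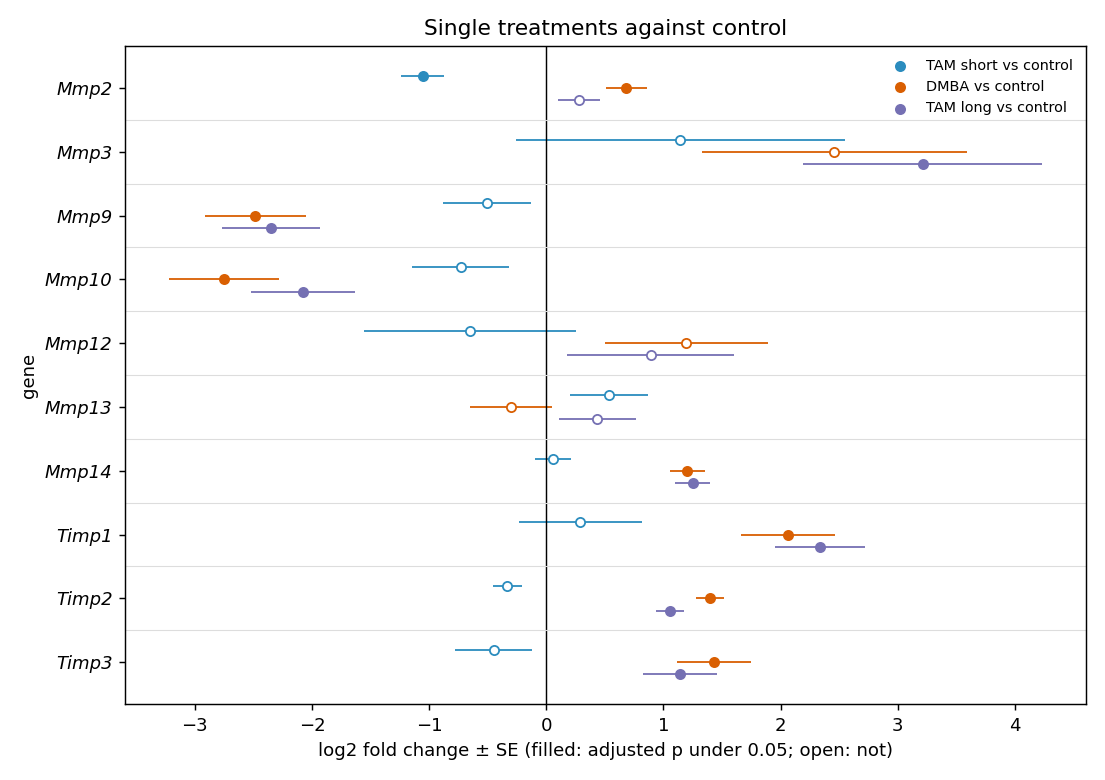
Log2 fold change of TAM short, DMBA and TAM long against control for each of the 10 genes, with bars for the standard error and filled points for adjusted p under 0.05. DMBA and TAM long lie on the same side of 0 for every gene except *Mmp13*, and *Mmp9* and *Mmp10* fall in both, whereas in TAM short *Mmp2* is the only gene past the test.

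The same split followed the gut segment markers. All 4 libraries of DMBA and TAM long lay above all 4 of control and TAM short for 5 genes, *Mmp2*, *Mmp14*, *Timp1*, *Timp2* and *Timp3*, as they did for 24.2% of all genes tested. They lay below them for 2, *Mmp9* and *Mmp10*, as they did for 21.7% of all genes. In these groups smooth muscle markers were also higher (6 of 6 against control in each), with sums of 7160 to 12836 in DMBA and TAM long against 1209 to 2280 in control and TAM short. Between groups that share the letter S or L, few members were called. Between TAM short and control, 0 genes were higher and 1, *Mmp2*, was lower, where 6.52% of all genes were higher and 7.80% lower. At an unadjusted p under 0.05 in edgeR, 0 were higher and 2, *Mmp2* and *Timp2*, lower, and DESeq2 called 0 higher and 1 lower. *Mmp2* fell by 1.05 (standard error 0.19, adjusted p = 0.00513), and the call was lost without control replicate 1 (adjusted p = 0.0513) or TAM short replicate 2 (adjusted p = 0.0641). Its mean in TAM short was 0.481 times that of control, beside 0.602 times for the fibroblast sum, of whose 10 markers 4 were called lower (*Col1a1*, *Col1a2*, *Col3a1* and *Postn*) and 1 higher (*Thy1*). Between TAM long and DMBA, edgeR called 0 of the 10 genes and DESeq2 also called 0, where edgeR called 2.70% of all genes. At an unadjusted p under 0.05, 2 genes were lower in TAM long, *Mmp2* and *Timp2*. *Mmp2* had a log2 fold change of -0.41 there (adjusted p = 0.238), and -0.66 without DMBA replicate 2 (adjusted p = 0.0419). A p above the threshold does not show that these groups are alike.

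Whether the combined treatment went beyond the sum of its parts was tested as an interaction, the change from DMBA to DMBA+TAM minus the change from control to TAM long on the log2 scale. It passed the test as positive for 9 of the 10 genes and as negative for 0 of them, where 21.6% of all genes were called positive and 26.5% negative. The called values ran from 1.59 for *Timp2* to 6.08 for *Mmp9*. For *Mmp3* the value was 3.82 (standard error 1.87, adjusted p = 0.12). With all libraries thinned to the smallest total, 6 genes were called in place of 9, and *Mmp10* (1.81, adjusted p = 0.225), *Mmp12* (1.25, adjusted p = 0.807) and *Timp1* (3.11, adjusted p = 0.891) were not. For *Mmp9* and *Mmp10*, the positive value holds a fall in each single treatment that was not added up in DMBA+TAM. For *Mmp9* it also holds a rise of 1.25 in DMBA+TAM against control. The test sets libraries with colon markers (DMBA and TAM long) against libraries with small intestine markers (control) and libraries with few markers of either (DMBA+TAM), and the TAM schedule of DMBA+TAM is not labelled short or long. Treatment and tissue makeup cannot be told apart in it.

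Other genes of the same pathway were counted by list. Of 16 further metalloproteinases, 11 passed the filter on low counts. Against control, 5 of them were higher in DMBA+TAM and 2 lower (29.0% and 35.3% of all genes), against DMBA 5 and 3 (25.2% and 29.9%), against TAM long 5 and 3 (25.3% and 29.9%), and against TAM short 6 and 1 (29.3% and 33.8%). The 4 most abundant were *Mmp7*, *Mmp15*, *Mmp19* and *Mmp17*. *Mmp7*, the matrilysin of Paneth cells that activates defensins, had 170 ± 21.8 normalized CPM in control and 239 ± 41.1 in TAM short (SD, n = 2). It had 2.60 ± 2.89 in DMBA, 8.63 ± 8.04 in TAM long and 0 counts in both DMBA+TAM libraries, where 3 counts stand for 1.58 and 1.32. *Mmp7* thus followed the small intestine markers. *Mmp15*, a membrane type enzyme of epithelial cells, had 156 ± 21.1 in DMBA and 109 ± 0.655 in TAM long, against 14.0 ± 0.956 in control, 14.0 ± 3.28 in TAM short and 14.5 ± 6.30 in DMBA+TAM. *Mmp17*, a membrane type enzyme known from smooth muscle, had 33.3 ± 11.2 for DMBA alone, 21.4 ± 3.86 for TAM long, 7.97 ± 1.05 in control, 3.40 ± 1.59 for TAM short and 8.14 ± 3.42 in DMBA+TAM. *Mmp19* had 102 ± 5.71 in DMBA+TAM and 2.30 ± 1.38 in control.

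Genes that activate or restrain the enzymes rose with them. Of 12 such genes 11 were tested, and 10 were higher and 0 lower in DMBA+TAM against control (29.0% and 35.3% of all genes). The counts were 11 and 0 against DMBA (25.2% and 29.9%) and against TAM long (25.3% and 29.9%), and 10 and 0 against TAM short (29.3% and 33.8%). *Serpine2*, a secreted serine protease inhibitor, had 3.08 ± 0.440 normalized CPM in control but 459 ± 46.1 in DMBA+TAM (SD, n = 2). *Furin*, the protease that opens the Mmp14 precursor, had 152 ± 8.82 in DMBA+TAM, 109 ± 10.4 in control and 64.1 ± 0.0632 in TAM long. The related convertase *Pcsk5* had 188 ± 18.8 in DMBA+TAM, 199 ± 10.6 in control and 39.2 ± 12.8 in DMBA, and was the tested gene of the list that was not called against control. *Timp4*, the remaining inhibitor of the family, was picked out after its values were seen. It had 21.7 ± 13.3 in DMBA+TAM, 0 counts in all control and TAM short libraries, 0.942 ± 0.574 in DMBA and 0.830 ± 0.0765 in TAM long.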

How the data were processed

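RNA was sequenced in 10 libraries, 2 in each of 5 groups taken from the sample labels. Per the study's methods the authors mapped reads with TopHat and counted them per gene with HTSeq. The deposited table holds raw read counts and FPKM for each library, and the build named in the submitters' processing notes is GRCm38.p6. The FPKM, as the authors deposited them, equal those recomputed from the listed gene length within 1% for only 26.2% of values with at least 20 counts. Columns with the authors' own comparisons (fold changes and p-values) were not used.

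Of 47069 genes, 26392 had a count, and 16179 passed edgeR's filterByExpr, including all 10 members. Another 5 lines held no counts. Counts were scaled by TMM and tested with edgeR 4.0.16 (quasi-likelihood, R 4.3.3) as 5 group means over 10 libraries, with Benjamini-Hochberg adjustment and a threshold of 0.05. Normalized CPM are counts per 1000000 reads of the TMM-scaled total. Intervals of count ratios are exact at 95% and cover counting error only. The fit was tested on simulated data. Promoters came from RefSeq. Python 3.11.15 with pandas 2.3.3, SciPy 1.17.1 and matplotlib 3.10.9 did the rest.

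The members and lists were chosen with earlier results of these data known. All 10 members are named. From the lists of further metalloproteinases, of genes that activate or restrain them, and of Adam and Adamts proteases, genes are named by mean normalized CPM. In each, the 4 highest among those tested are named, and *Mmp7* always. *Timp4* and the single markers of cell types and gut segments are named outside this rule. A gene that this rule names is not reported here. Alternatives were fits with each library left out in turn, with DESeq2 1.42.0, without TMM (library size alone), without the filter, on the compared libraries alone, with the replicate number as a block, and with counts thinned to 1592366 a library.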

Additional observations from a re-analysis of the deposited data

Results flagged for a closer look

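The change from DMBA to DMBA+TAM differed from the change from control to TAM long, by the interaction term of the edgeR fit with Benjamini-Hochberg adjustment, for 9 of the 10 genes, all positive, where 21.6% of all genes were called positive and 26.5% negative. Among the metalloproteinases, the log2 value was 6.08 for *Mmp9* (standard error 0.61, adjusted p = 2.86e-05), 3.87 for *Mmp13* (adjusted p = 8.86e-05), 3.41 for *Mmp12* (adjusted p = 0.0163), 3.40 for *Mmp2* (adjusted p = 3.64e-06), 2.69 for *Mmp14* (adjusted p = 4.93e-06) and 2.60 for *Mmp10* (adjusted p = 0.028). Among the inhibitors it was 5.19 for *Timp1* (adjusted p = 0.000115), 2.39 for *Timp3* (adjusted p = 0.00133) and 1.59 for *Timp2* (adjusted p = 3.77e-05). With counts thinned to the smallest library, *Timp1* (3.11, adjusted p = 0.891), *Mmp12* (1.25, adjusted p = 0.807) and *Mmp10* (1.81, adjusted p = 0.225) were not called. The groups of this test also differed in segment and cell type markers, so treatment and tissue makeup cannot be told apart in it. With 1 library left out, the value of *Mmp9* ranged from 5.55 to 6.98. The call of *Mmp12* was lost without control replicate 1 (2.23, adjusted p = 0.373), and that of *Mmp10* without DMBA+TAM replicate 1 (0.79, adjusted p = 0.621), control replicate 2 (2.24), DMBA replicate 1 (2.45) or TAM long replicate 1 (2.36).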

How the results depend on the processing

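For the 9 genes other than *Mmp10*, all 360 alternative log2 fold changes of DMBA+TAM against the 4 other groups stayed above 0, and 357 kept the call, the exceptions being *Mmp9* against control without control replicate 1, control replicate 2 or DMBA+TAM replicate 1. Directions that turned over concerned genes with few counts. *Mmp10* against DMBA ranged from -1.31 to 1.39 with 1 library left out, *Mmp10* against TAM long was 0.030 with scaling by library size only and ranged from -1.98 to 0.72 with 1 library left out, and the interaction of *Mmp3* ranged from -0.18 to 5.21, the cause not being tested. With 1 library left out, the number of members called was 9 for DMBA+TAM against control, 5 to 7 for DMBA against control, 4 to 7 for TAM long against control, 0 to 1 for TAM short against control, 0 to 1 for TAM long against DMBA and 8 to 10 for the interaction. Over all 719 alternative log2 values, 681 kept direction and call, 24 lost the call, 9 gained it and 5 turned over. Replicate numbers were not treated as pairs in the main fit. The deviations of same-numbered libraries correlated between -0.0414 and 0.260, and above 0.1 in 1 of 10 pairs of groups, DMBA with TAM long. Such correlations cannot exclude a pairing of samples. With the replicate number as a block, 0 members were called in TAM long against DMBA, as without it. With the replicate block, 10 members were called in DMBA+TAM against control, as without it, and 10219 in place of 10396 of all genes. Depth limits *Mmp10* and *Mmp12* in DMBA+TAM, where the libraries are 5.65 times smaller than the median of the other 8, and *Mmp3*, *Mmp12* and *Timp1* in control, where 0 to 6 counts stand behind a value.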

Other observations

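Proteases of the Adam and Adamts families, which shed cell surface proteins and cut proteoglycans and procollagen, were counted as a further list. Of 15 such genes 14 were tested, and edgeR called 13 higher and 0 lower in DMBA+TAM against control (29.0% and 35.3% of all genes), 13 and 0 against DMBA (25.2% and 29.9%), 14 and 0 against TAM long (25.3% and 29.9%), and 13 and 1 against TAM short (29.3% and 33.8%). *Adam10*, the sheddase of Notch receptors, had 213 normalized CPM on average in both control and DMBA+TAM, 308 in TAM short, 167 in DMBA and 159 in TAM long. *Adamts2*, which trims procollagen, had 309 in DMBA+TAM and 11.1 in control. *Adam9* had 283 and 51.5, and *Adam17*, the sheddase that Timp3 blocks, had 138 and 58.2.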
